A study of Saccharomyces cerevisiae with 16 samples.

Results

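SUI1, TIF11, TIF5 and FUN12 are the yeast genes of eIF1, eIF1A, eIF5 and eIF5B, the factors that let a scanning small ribosomal subunit settle on a start codon and turn into a translating ribosome. They were chosen by their systematic names (YNL244C, YMR260C, YPR041W and YAL035W) and are 4 of the 5818 genes in a table of 40S footprint counts. The rule uses no measured value, but the members were chosen with earlier results of these data known. What follows describes where 40S subunits sat on the mRNAs of these factors, not how the factor proteins acted.

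The small subunit joins an mRNA near its cap as part of a pre-initiation complex and scans the 5′ UTR, also called the leader, for an AUG codon. eIF1 and eIF1A bind the 40S subunit beside its decoding centre and hold it in a form that can scan, and eIF1 leaves once the AUG is recognised. eIF5 stimulates the GTPase of eIF2, which carries the initiator tRNA, and eIF5B is a second GTPase that helps the large subunit join. In yeast the start codon of SUI1 is known to lie in a poor sequence context, through which eIF1 limits its own synthesis.

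Translation complex profiling sequences the mRNA fragments that fixed 40S subunits or 80S ribosomes protect from RNase I. The series holds 16 libraries of Saccharomyces cerevisiae, and the gene table covers 6 of them, all of 40S footprints. Cells grew in rich medium at 30 °C and were fixed with 0.8% formaldehyde for 1 h on ice. The 3 unselected libraries came from strain SY182 (eIF3a/TIF32-FLAG, number 1-1), strain H25 (eIF3c/NIP1-FLAG, 1-2) and strain SY194 (eIF2beta/SUI3-FLAG, 1-3). The 3 factor-bound libraries came from the same strains by anti-FLAG pull-down, so that each holds 40S subunits carrying eIF3a, eIF3c or eIF2β. All 6 libraries therefore carry a FLAG tag on a subunit of eIF3 or eIF2, and no untagged strain was analysed here. Each factor has 1 library, so the spread within the factor-bound group also holds differences between factors and is not replicate error of any one of them.

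For each gene the table gives separate counts for the leader, the start codon, the coding region between the start and stop codons, the stop codon, and the 3′ UTR. Library totals ran from 1595793 to 2800652 footprints in the unselected group and from 3403297 to 4486412 in the factor-bound group, so low counts are less precise in the unselected group. Over all genes, leaders held between 9.09% and 9.89% of unselected footprints and between 18.6% and 25.1% of factor-bound footprints. Coding regions held between 28.1% and 32.6% against between 11.9% and 17.7%. Start codons held between 52.1% and 57.6% of unselected footprints and between 61.2% and 62.6% of factor-bound footprints.

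The genes differ in length and have neighbours at some distance. On build R64, SUI1 lies on chromosome XIV from 187170 to 187496 on the minus strand, a coding sequence of 327 nt for 108 residues. TIF11 lies on chromosome XIII from 789378 to 789839 on the minus strand, 462 nt for 153 residues. TIF5 lies on chromosome XVI from 648704 to 649921 on the plus strand, 1218 nt for 405 residues. FUN12, the longest, lies on chromosome I from 76427 to 79435 on the plus strand, 3009 nt for 1002 residues. No coding sequence overlapped another gene of the RefSeq table, and the nearest neighbours lay between 274 and 554 nt away. The upstream neighbours of TIF5 (TIP41, 328 nt away) and TIF11 (TPS3, 365 nt away) run on the same strand, and the reach of the authors' leader and 3′ UTR areas is not stated in the labels or file headers.

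On all 4 mRNAs the largest single share of factor-bound 40S footprints lay at the start codon. Start codon shares were higher in every factor-bound library than in every unselected one, for each of the 4 genes. Coding region and stop codon shares were lower without overlap on each of them. The stop codon groups of FUN12 nearly met, on few counts. They came closest at 0.86% (6 footprints, unselected 1-3) and 0.631% (5 footprints, eIF2β-bound). In each of these areas more genes than not did the same: among the 853 genes with at least 200 footprints in every library, 56.6% had a higher start codon share without overlap, 83.7% a lower coding region share and 79.2% a lower stop codon share. The gain in start codon share was 38.1 percentage points for FUN12, 18.9 for TIF11, 16.1 for SUI1 and 11.9 for TIF5. A share also rises when another area of the gene loses counts. Start codon counts relative to the typical gene gave another order, with none of the 4 genes past the edgeR threshold. Their log2 folds were −0.14 for FUN12, 0.26 for TIF11, 0.01 for SUI1 and 0.52 for TIF5. Of 20 shares, 5 areas in each of 4 genes, 18 did not overlap between the groups, where 73.7% of the 4265 shares of those 853 genes did not (leaders were higher in 75.3% of genes and 3′ UTRs lower in 63.8%). Each of those had p = 0.1 in a two-sided exact permutation test, the smallest that 3 libraries against 3 allow, and 0.111 after Benjamini-Hochberg adjustment over the 20. The exceptions were the leader of SUI1 (exact permutation p = 0.2) and the 3′ UTR of FUN12 (exact permutation p = 0.3).

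**Figure D1:**
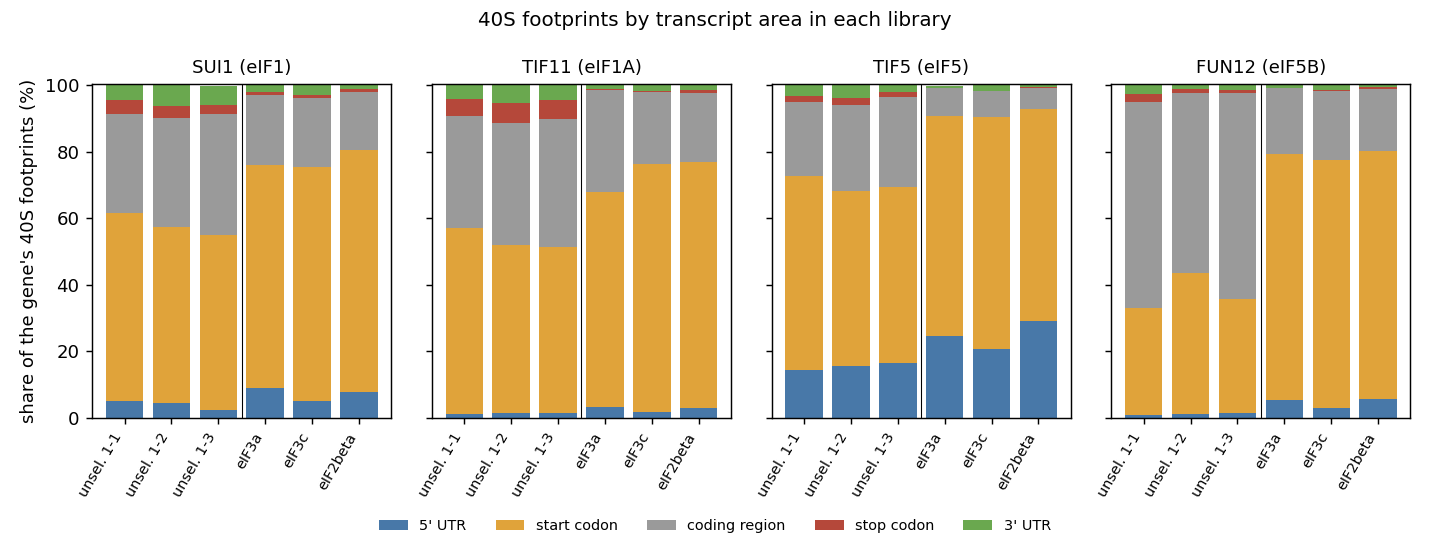
Stacked bars give, for each of the 4 genes, the percentage of its 40S footprints in each of the 5 areas, with 1 bar per library (3 unselected at the left, eIF3a-, eIF3c- and eIF2β-bound at the right of the line). The start codon part of FUN12 goes from between 32.2% and 42.4% in unselected libraries to between 73.9% and 74.7% in factor-bound ones, and TIF5 has the largest leader part in every library.

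SUI1 (eIF1) carried 961, 538 and 549 start codon footprints in unselected libraries 1-1, 1-2 and 1-3, and 1237, 1957 and 1684 in the eIF3a-, eIF3c- and eIF2β-bound libraries. Those are 56.6%, 52.9% and 52.6% of the gene's unselected footprints and 67.1%, 70.4% and 72.8% of its factor-bound footprints. The 95% Wilson interval of the unselected 1-1 share ran from 54.2% to 58.9% and that of the eIF3a-bound share from 64.9% to 69.2%. The groups did not overlap, and the increase was larger than the spread within either group (54.0% ± 2.21 against 70.1% ± 2.86, SD, n = 3 each).

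The SUI1 leader held few footprints, 84, 45 and 25 in the unselected libraries and 166, 137 and 181 in the factor-bound ones. As shares these are 4.95%, 4.42% and 2.4%, and 9.01%, 4.93% and 7.83%. The eIF3c-bound share lay just under that of unselected library 1-1, so the groups overlapped. Coding region footprints numbered 507, 335 and 380 in unselected libraries and 389, 578 and 402 in factor-bound libraries. Their share was 33.1% ± 3.29 against 19.8% ± 2.07 (SD, n = 3 each), without overlap.

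SUI1 is the only one of the 4 genes in the authors' list of cap sites, which covers 190 genes. Its single listed site, position 187585 on chromosome XIV, puts the cap 89 nt before the AUG, or 1 nt less or more if the list counts from 0. Of the 190 genes, 143 had a longest listed leader of greater length, and the median was 112 nt. Scaled to leader length, SUI1 had 0.0845 leader footprints per 100 nt for each start codon footprint in the unselected group. The median of the 179 listed genes with enough counts was 0.788, and 3.91% of them had a lower value than SUI1. In the factor-bound group SUI1 had 0.111 against a median of 1.29, and 1.64% of 183 genes were lower. The labels and headers do not say how the authors chose the listed genes, so these ranks hold within that list alone.

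TIF11 (eIF1A) had the second-shortest coding sequence of the set and a very small leader signal. Its leader held 16, 17 and 14 footprints in unselected libraries and 62, 58 and 68 in factor-bound ones, between 1.19% and 1.57% and between 1.86% and 3.25% of the gene's footprints. Start codon footprints numbered 753, 548 and 508 in the unselected libraries and 1238, 2317 and 1759 in the factor-bound ones. The start codon share was 52.1% ± 3.33 in the former (SD, n = 3), at most 56.0%, and 64.8%, 74.5% and 74.0% in the latter. The eIF3a-bound library stood lowest of the factor-bound libraries, and its counting interval of 62.6% to 66.9% reached neither of the others. Such an interval leaves out variation between libraries, and each factor has 1 library.

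At the other end of the mRNA, TIF11 carried 69, 65 and 56 stop codon footprints in unselected libraries and 7, 16 and 21 in factor-bound ones. Its stop codon share was 5.54% ± 0.428 against 0.588% ± 0.266 (SD, n = 3 each), and the groups lay far apart. It had the highest unselected stop codon share of the 4 genes in each of the 3 unselected libraries. The 3′ UTR of TIF11 held 56, 57 and 46 footprints against 23, 50 and 36, or 4.65% ± 0.552 against 1.44% ± 0.211 of the gene (SD, n = 3 each).

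TIF5 (eIF5) stood apart by its leader, which held more footprints than those of the other 3 genes in every library. Unselected libraries had 187, 103 and 136 leader footprints, and the eIF3a-, eIF3c- and eIF2β-bound libraries had 577, 547 and 779. The leader share was 14.3%, 15.5% and 16.4% before selection and 24.5%, 20.6% and 29.2% after it. The eIF2β-bound library was highest, and its interval of 27.5% to 31.0% did not meet that of the eIF3c-bound library, 19.1% to 22.1%. Over all genes the eIF2β-bound library was also the one with the highest leader share.

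The coding region of TIF5 held 290, 172 and 225 unselected footprints and 196, 207 and 166 factor-bound ones. Its share was between 22.2% and 27.1% of the gene's footprints in unselected libraries and between 6.23% and 8.33% in factor-bound ones, the lowest factor-bound coding share of the 4. Over all genes too, coding regions held a smaller share of factor-bound than of unselected footprints. Relative to the typical gene, the coding region counts of TIF5 did not pass (log2 fold −0.16, edgeR adjusted p = 0.563). Start codon footprints of TIF5 numbered 765, 351 and 439 against 1560, 1856 and 1698. Counted over all areas and scaled to each library's total (CPM), TIF5 was at 441 ± 25.1 CPM in the unselected group and 628 ± 54.6 in the factor-bound group (SD, n = 3 each). The 3 factor-bound values were 691, 599 and 594, and the highest unselected value was 467. How many of all genes lay as far apart in CPM was not counted.

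FUN12 (eIF5B) was the only one of the 4 whose unselected 40S footprints lay mostly in the coding region. There it had 698, 338 and 432 footprints in unselected libraries and 149, 215 and 147 in factor-bound libraries. The coding share was 61.8%, 54.1% and 61.9% in the former and 19.9%, 20.9% and 18.6% in the latter. Start codon footprints numbered 363, 265 and 240 against 552, 768 and 592, which makes 32.2%, 42.4% and 34.4% against 73.9%, 74.6% and 74.7%. The 3 factor-bound shares lay within 1 percentage point of each other, with an SD of 0.448 (n = 3), while the unselected shares had an SD of 5.39.

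Counted over all areas, FUN12 was at 403, 392 and 369 CPM in unselected libraries and at 219, 232 and 177 in factor-bound ones. Here too the share of all genes that lay as far apart was not counted. The leader of FUN12 held fewer footprints than that of TIF11, 10, 7 and 10 unselected and 40, 29 and 45 factor-bound. As a share of the gene's footprints it was higher than that of TIF11 in each factor-bound library. These shares were 5.35%, 2.82% and 5.68% for FUN12 against 3.25%, 1.86% and 2.86% for TIF11. In the unselected group the FUN12 share was lower in 1-1 and 1-2 and higher in 1-3. The stop codon of FUN12 held 29, 7 and 6 unselected and 1, 3 and 5 factor-bound footprints. Its 3′ UTR held 29, 8 and 10 against 5, 15 and 3. Both areas were too low for a test across genes.

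The ratio of leader to start codon counts within a gene compares 40S subunits on the way to the AUG with those on it of the same mRNA. It was 0.0266 ± 0.00496 for TIF11, 0.0319 ± 0.0085 for FUN12, 0.0722 ± 0.0232 for SUI1 and 0.283 ± 0.034 for TIF5 in the unselected group (SD, n = 3 each). TIF5 was highest and SUI1 next in all 6 libraries. TIF11 was below FUN12 in 5 of the 6, and their unselected values overlapped.

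Among 3652 genes with at least 30 counts in both areas together in the unselected group, the median ratio was 0.153. TIF11 ranked at percentile 16.5, FUN12 at 18.8, SUI1 at 33.6 and TIF5 at 63.7, where a percentile is the share of genes with a lower ratio. In the factor-bound group, with 4243 genes and a median of 0.214, the ratios were 0.0379 ± 0.0125, 0.0621 ± 0.0211, 0.104 ± 0.0322 and 0.374 ± 0.0821 in the same order of genes (SD, n = 3 each). Their percentiles were 13.2, 19.8, 30.0 and 65.0, each within 4 points of its unselected rank. Leader lengths of TIF11, TIF5 and FUN12 were not known here, so these ratios are not per nucleotide.

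The ratio of start codon to coding region counts compares subunits on the AUG with 40S signal downstream of it. In unselected libraries it was 1.90, 1.61 and 1.44 for SUI1, 1.67, 1.37 and 1.30 for TIF11, and 2.64, 2.04 and 1.95 for TIF5. FUN12 was lower in each library, at 0.520, 0.784 and 0.556. Among 4948 genes with a median of 0.588 in counts summed over the 3 libraries, FUN12 lay at percentile 50.2, TIF11 at 81.1, SUI1 at 84.8 and TIF5 at 91.3. Within single libraries the medians were 0.777, 0.744 and 0.690. FUN12 lay there at 35.8, 52.2 and 41.7, and the other members ranked lower than in the sum. With at least 100 summed counts the ranks were 39.6 for FUN12, 74.8 for TIF11, 79.6 for SUI1 and 88.3 for TIF5.

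After selection the ratio was 3.18, 3.39 and 4.19 for SUI1, 2.13, 3.46 and 3.56 for TIF11, and 3.70, 3.57 and 4.03 for FUN12, in the eIF3a-, eIF3c- and eIF2β-bound libraries. TIF5 reached 7.96, 8.97 and 10.2, the highest of the 4 in every library. The median of 5031 genes was 1.38. TIF5 lay at percentile 98.1, with 96 genes above it, FUN12 at 81.0, SUI1 at 79.7 and TIF11 at 75.6. Within single libraries the medians were 1.72, 1.46 and 2.06, with TIF5 at 98.6, 97.4 and 94.7 and FUN12 at 80.2, 78.9 and 71.0. FUN12, lowest of the 4 before selection, was now at 3.77 ± 0.234, beside SUI1 at 3.58 ± 0.533 and TIF11 at 3.05 ± 0.796 (SD, n = 3 each). Its values overlapped those of SUI1, while the highest value of TIF11 lay just under the lowest of FUN12.

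A coding region collects counts along its length, and the 4 genes differ in length. With coding counts per kilobase, an alternative chosen after seeing the data, unselected percentiles became 34.1 for SUI1, 42.4 for TIF11, 97.5 for TIF5 and 88.0 for FUN12. In the factor-bound group they were 36.9, 41.9, 97.7 and 97.9. TIF5 thus kept a place near the top of all genes on both scales, while the ranks of SUI1 and TIF11 lay below the median per kilobase and that of FUN12 was higher.

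**Figure D2:**
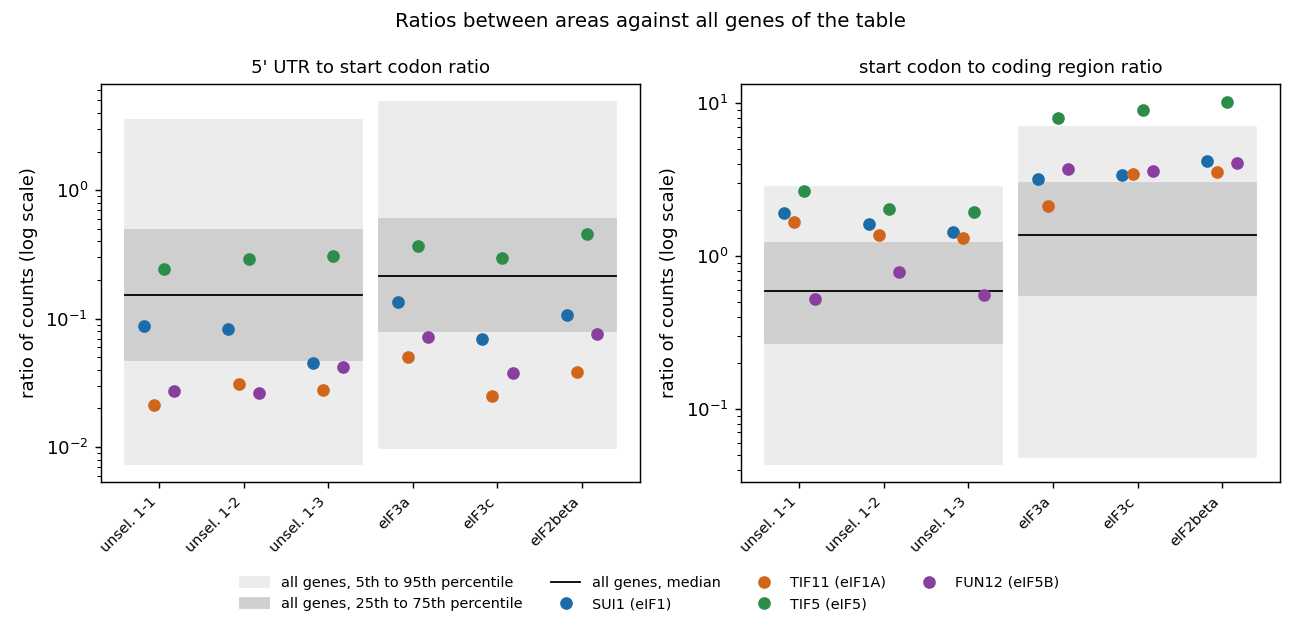
Points give the ratio of counts between 2 areas of a gene in each library on a log axis (left, 5′ UTR to start codon; right, start codon to coding region), over bands for the 5th to 95th and 25th to 75th percentiles of all genes in the group and a line at their median. TIF5 lies above the group's 5th to 95th percentile band of start codon to coding region ratios in all 3 factor-bound libraries, and TIF11 and FUN12 lie under the group's 25th to 75th percentile band of leader to start codon ratios in all 6 libraries.

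Set against the unselected library of its own strain, each factor-bound library had a higher start codon to coding region ratio on all 4 genes. For FUN12 the fold was 7.10 with eIF3a, 4.55 with eIF3c and 7.22 with eIF2β, where the median genes had 1.92, 2.48 and 3.42. For TIF5 it was 3.01, 4.39 and 5.23. For SUI1 it was 1.68, 2.11 and 2.90 and for TIF11 1.28, 2.52 and 2.75, close to or under the median gene with each factor. The leader to start codon ratio was higher with eIF3a and eIF2β on all 4 genes, by 1.51- to 2.54-fold and by 1.37- to 2.32-fold, against 1.70 and 1.67 for the median gene. With eIF3c it was 0.83 for SUI1, 0.79 for TIF11, 1.00 for TIF5 and 1.36 for FUN12, against a median of 1.10. With 1 library per factor these differences between factors have no replicate check.

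The tests across genes asked whether a member's counts in an area changed more or less than those of other genes. Counts of each area were fitted on all genes with edgeR's quasi-likelihood test, 3 factor-bound against 3 unselected libraries, scaled within the area by TMM (trimmed mean of M values) and adjusted by Benjamini-Hochberg with a threshold of 0.05. A log2 fold is therefore relative to the typical gene of that area. Scaled to library totals instead, the median gene itself moved by 1.02 (log2) in leaders, 0.28 at start codons, −1.07 in coding regions, −2.26 at stop codons and −1.29 in 3′ UTRs.

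In the coding region 2 of 4 members passed, 1 in each direction, where 26.2% of the 4797 genes tested passed, 14.4% as rises and 11.8% as falls. FUN12 fell by 1.41 in log2 units (SE 0.19, edgeR adjusted p = 0.000527), lower in 3 of 3 factor-bound libraries, and only 1.88% of genes had a lower value. The fall passed without any 1 of the 6 libraries (log2 from −1.48 to −1.31) and with library totals (−2.46). TIF11 rose by 0.55 (SE 0.19, edgeR adjusted p = 0.0457) relative to the typical gene, but its log2 fold was −0.52 with library totals (edgeR adjusted p = 0.109).

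The TIF11 call was lost without unselected 1-1 (edgeR adjusted p = 0.206), unselected 1-3 (0.148) or the library of eIF3a (0.0889), eIF3c (0.0582) or eIF2β (0.0664), and with DESeq2 (0.0618). It held without unselected 1-2 (0.0441). SUI1 (0.24, SE 0.17, edgeR adjusted p = 0.31) and TIF5 (−0.16, SE 0.19, edgeR adjusted p = 0.563) did not pass. With library totals SUI1 had −0.82 and TIF5 −1.23, both past the threshold (edgeR adjusted p = 0.012 and 0.00105), beside the median shift of −1.07 and 64.8% of genes past the threshold.

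Coding-region folds moved with coding length over the whole table. The median log2 fold was 0.40 in the 1604 shortest genes tested (78 to 966 nt), −0.01 in the 1595 of middle length (968 to 1728 nt) and −0.44 in the 1593 longest (1731 nt and over). SUI1 and TIF11 are in the first group, TIF5 in the second and FUN12 in the last. Among genes of its own length group, SUI1 ranked at percentile 40.1, TIF11 at 58.6, TIF5 at 40.4 and FUN12 at 3.89, with 62 of 1593 genes lower than FUN12. The part that length has in the calls of single genes was not tested.

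**Figure D3:**
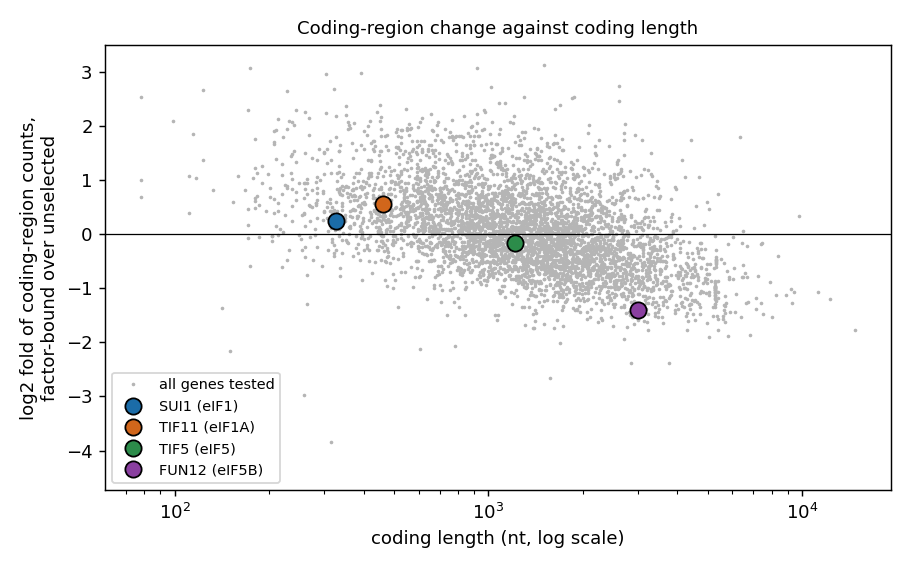
Each grey point is 1 gene tested in the coding region, with its coding length in nt (log axis) and its log2 fold of factor-bound over unselected counts, and the 4 larger points are the members. Folds decline with length, and FUN12 at 3009 nt and −1.41 lies near the lower edge of the cloud at its length.

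At the start codon 0 of 4 members passed with edgeR or with DESeq2, where 6.46% of 3868 genes passed (1.34% as rises and 5.12% as falls). At an unadjusted edgeR p under 0.05 were 1 of 4 members and 26.4% of all genes. That member was TIF5 (log2 fold 0.52, SE 0.15, edgeR adjusted p = 0.0755). With the library number as a block, which pairs each selected library with the unselected library of its strain, TIF5 passed (0.52, edgeR adjusted p = 0.000591), where 12.6% of genes rose and 16.2% fell. It also passed with library totals (0.79, edgeR adjusted p = 0.0308), where 10.9% of genes did. The start codon folds of SUI1 (0.01, SE 0.16), TIF11 (0.26, SE 0.21) and FUN12 (−0.14, SE 0.20) did not pass, and that of FUN12 was 0.15 with library totals.

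In leaders 0 of 4 members passed with edgeR or DESeq2, where 1.67% of 2036 genes passed with edgeR. At an unadjusted edgeR p under 0.05 were 0 of the 4 and 10.7% of all genes. Their log2 folds ran from −0.28 (SE 0.32) for SUI1 to 0.17 (SE 0.19) for TIF5. With library totals TIF5 (1.2), FUN12 (1.10) and TIF11 (0.99) passed, beside a median gene at 1.02 and 59.1% of genes past the threshold. At stop codons 3 of the 4 members had enough counts, and 1 passed, where 24.5% of 497 genes passed and 10.3% as falls.

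That gene was TIF11, whose stop codon counts fell by 1.08 in log2 units (SE 0.33, edgeR adjusted p = 0.028), lower in 3 of 3 factor-bound libraries. With library totals the log2 fold was −3.15, and SUI1 (−2.21) and TIF5 (−2.33) also passed, beside a median gene at −2.26 and 92.8% of genes past the threshold. The call was lost without unselected 1-2 (edgeR adjusted p = 0.104), unselected 1-3 (0.0613), the eIF3a-bound (0.0933) or the eIF3c-bound library (0.0986). In 3′ UTRs 0 of 3 members tested passed with edgeR or DESeq2, where 6.21% of 725 genes passed with edgeR. At an unadjusted edgeR p under 0.05 were 0 of the 3 and 19.2% of all genes. With library totals SUI1 (−1.45), TIF11 (−1.6) and TIF5 (−1.21) all passed, beside a median gene at −1.29 and 72.7% of genes past the threshold.

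The change of a ratio between areas was tested as the interaction of area and group in 1 edgeR model over both areas, with the library as a term. For start codon over coding region 2 of 4 members passed, both as rises, where 26.9% of 3776 genes passed and 11.5% as rises. FUN12 rose by 1.25 (log2, SE 0.24, edgeR adjusted p = 0.00101) and TIF5 by 0.66 (SE 0.21, edgeR adjusted p = 0.0237), relative to the typical gene. FUN12 passed without any 1 of the 6 libraries, at values from 1.03 to 1.47.

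The TIF5 call was lost without unselected 1-1 (edgeR adjusted p = 0.0701), 1-2 (0.0887) or 1-3 (0.0928), at log2 values of 0.69, 0.65 and 0.64. SUI1 (−0.26, SE 0.20, edgeR adjusted p = 0.343) and TIF11 (−0.33, SE 0.21, adjusted p = 0.268) did not pass. With library totals they passed at 1.12 and 1.05, where the median gene had 1.34 and 67.5% of genes passed. Within length groups FUN12 ranked at percentile 83.0 of 1257 and TIF5 at 83.3 of 1258.

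For leader over start codon 0 of 4 members passed in edgeR, where 5.24% of 1929 genes passed, 2.38% as rises. At an unadjusted p under 0.05 were 0 of the 4 and 21.1% of all genes. The log2 changes were −0.22 (SE 0.20) for TIF5, −0.14 (SE 0.28) for SUI1, −0.14 (SE 0.31) for TIF11 and 0.32 (SE 0.37) for FUN12. With library totals they were 0.39, 0.49, 0.47 and 0.93, beside a median gene at 0.52.

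**Figure D4:**
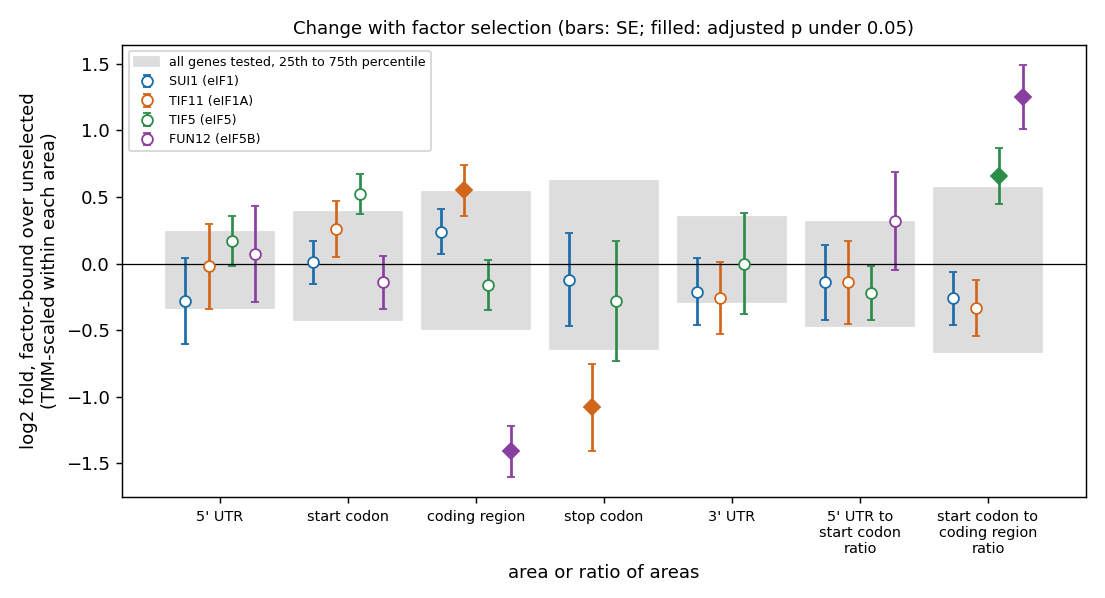
Points give the log2 fold of factor-bound over unselected libraries for each member in each area and ratio, with SE bars, filled diamonds for an edgeR adjusted p under 0.05 and open circles otherwise. Grey bands span the 25th to 75th percentile of all genes tested. FUN12 lies below the band in the coding region (−1.41) and above it in the start codon to coding region ratio (1.25).

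The other initiation genes give the setting of these calls. Of a list of 29, TMA20 was not analysed here. In the coding region 6 of 28 rose and 6 fell, where 14.4% of all genes tested rose and 11.8% fell. The list's median log2 fold there was −0.06 beside 0.00 for all genes. The risers were PRT1 (0.49) and TIF34 (0.68) of eIF3, the cap-binding eIF4E gene CDC33 (0.77), the eIF4A genes TIF1 (0.57) and TIF2 (0.52), and TMA64 (1.11), a yeast relative of eIF2D. Those that fell were GCD2 (−1.44) and GCD6 (−0.86) of the exchange factor eIF2B, NIP1 (−1.18) of eIF3, the eIF4G genes TIF4631 (−1.25) and TIF4632 (−0.81), and the poly(A)-binding protein gene PAB1 (−0.76). NIP1 is the gene tagged in strain H25. TIF1 and TIF2 encode the same protein from nearly identical sequences, so how their footprints were divided is uncertain.

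FUN12, at −1.41, lay beside GCD2 and TIF4631 at the low end of that range. At the start codon 2 of 27 rose and 0 fell, TIF2 (0.70) and the eIF4B gene TIF3 (0.73), where DESeq2 also passed 2. Over all genes tested, 1.34% rose and 5.12% fell with edgeR. With the library block 7 of the 27 rose and 6 fell, where 12.6% of all genes rose and 16.2% fell. At the stop codon 1 of 13 rose, SUI3 of eIF2 (1.64), which is the gene tagged in the third strain, and 1 fell, the eIF4E-binding protein gene CAF20 (−1.21). Of all genes tested there, 14.3% rose and 10.3% fell.

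In the start codon to coding region ratio 5 of 27 rose, NIP1 (1.60), TIF4632 (1.54), GCD2 (1.30), TIF3 (0.96) and TIF4631 (0.84), and TIF35 of eIF3 fell (−0.67). Of all genes tested, 11.5% rose and 15.4% fell. The list's median was 0.10 beside −0.02 for all genes. In leaders 0 of 20 passed with edgeR or DESeq2 and 0 had an unadjusted edgeR p under 0.05, where 1.67% and 10.7% of all genes did with edgeR. In 3′ UTRs 0 of 16 passed with either tool and 1 had an unadjusted edgeR p under 0.05, where 6.21% and 19.2% of all genes did with edgeR. In the leader to start codon ratio 0 of 20 passed in edgeR and 1 had an unadjusted p under 0.05, where 5.24% and 21.1% of all genes did. With the library block 1 rose, where 4.92% of all genes rose.

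Among 853 genes with at least 200 footprints in every library, the genes most like each member were those with the smallest mean absolute difference of area shares over 5 areas and 6 libraries. For SUI1 they were BAT1 (1.39 percentage points), PRE4 (1.72) and RPL24B (1.74), against a median of 6.56 over all genes. For TIF11 they were FCY1 (1.43), MET17 (1.57) and RPS1B (1.58), against 7.51. For TIF5 they were YPR1 (1.57), UGP1 (1.59) and HYP2 (1.62), against 8.02. FUN12 had no gene as close, with FRS1 (2.85), NOP2 (2.91) and FAS1 (2.98) nearest and a median of 9.86. No member was among the 3 nearest genes of another, but 3 of 853 genes are too few to tell whether the members resemble each other.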

How the data were processed

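Per the labels' protocols, RNA of about 18 to 85 nt was taken from separated 40S complexes, after anti-FLAG pull-down for selected libraries. The genome build R64 and the tools TopHat2 2.1.0, Bowtie2 2.2.6, Bowtie 1.2.2 and CASAVA 1.8 appear in the submitters' processing notes, without their roles. The authors deposited whole-number footprint counts per gene and area, not normalized. The handling of area assignment, strand, multiple mapping and duplicates was not given in the sources used here. Per the file headers, a list of cap sites by the authors gives other values, genomic positions per gene. The column headed eIF2α was read as eIF2β-bound, since no other selected 40S title has number 1-3. Files without values for single members were not used.

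Of 5818 gene IDs, 5776 matched RefSeq locus tags (R64). Tests used edgeR 4.0.16 (R 4.3.3, limma 3.58.1) with filterByExpr and TMM, and DESeq2 1.42.0 as an alternative. SEs were obtained from the log2 fold and its F statistic (|log2 fold| over √F). Percentiles used a pseudocount of 0.5. Shares have 95% Wilson intervals, which cover counting error only (Python 3.11.15 with pandas 2.3.3, NumPy 2.4.6, matplotlib 3.10.9 and SciPy 1.17.1).

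Samples were grouped by title. Numbers 1-1, 1-2 and 1-3 mark a strain shared by a selected and an unselected library. Deviations of these pairs from their group means correlated at 0.148 to 0.589 over the areas. The labels do not call the replicates separate cultures, but the 3 libraries of a group came from 3 different strains. A p-value thus reflects spread between libraries that also holds differences between strains, and in the factor-bound group between factors. The technical part of that spread cannot be told apart. Members and lists were chosen with earlier results of these data known. Named beside the members are listed initiation genes that passed a test and the 3 genes nearest to each member.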

Additional observations from a re-analysis of the deposited data

How the results depend on the processing

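Replacing TMM within areas by library totals gave 1197 calls in leaders (34 with TMM), 415 at start codons (250), 3149 in coding regions (1258), 579 at stop codons (122), 635 in 3′ UTRs (45), 386 for leader over start codon and 2547 for start codon over coding region (1015). With it the log2 folds that changed sign were those of SUI1 in the leader (0.74), coding region (−0.82), leader to start codon ratio (0.49) and start codon to coding region ratio (1.12); TIF11 in the leader (0.99), coding region (−0.52) and the same ratios (0.47 and 1.05); TIF5 in the leader to start codon ratio (0.39); and FUN12 at the start codon (0.15). The replicate block gave 137 calls in leaders, 1114 at start codons, 70 in 3′ UTRs and 222 for leader over start codon; beside the start codon call of TIF5 (adjusted p = 0.000591) it changed no other call of a member. Without a filter on low counts leaders had 65 calls and 3′ UTRs 81, and the TIF11 coding call was lost (edgeR adjusted p = 0.0545). The TIF11 leader fold, −0.02, became 0.01 with RLE scaling, 0.01 with DESeq2 and 0.11 with no filter.

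Leaving out 1 library at a time gave 8 to 22 calls in leaders, 46 to 148 at start codons, 823 to 1229 in coding regions, 20 to 59 in 3′ UTRs, 14 to 133 for leader over start codon and 610 to 945 for start codon over coding region. Uncalled folds near 0 then crossed it. In the leader the ranges were −0.50 to 0.02 for SUI1, −0.19 to 0.24 for TIF11 and −0.16 to 0.29 for FUN12. At the start codon they were −0.05 to 0.09 for SUI1 and −0.24 to 0.04 for FUN12, at the stop codon −0.38 to 0.03 for SUI1 and −0.74 to 0.06 for TIF5, in the 3′ UTR −0.38 to 0.16 for TIF5, and in the leader to start codon ratio −0.39 to 0.17 for SUI1. The causes were not tested. Recomputed without each library, the 20 share differences gave 120 values that moved by less than the spread between libraries. Of the ratio percentiles recomputed under other settings, 84 moved by less than the spread between libraries and 20 by more. Leaders of TIF11 and FUN12, with 7 to 17 unselected footprints per library, limit what could be detected there.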
